A study of Camellia sinensis with 24 samples.

Results

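The comparison described here is that of tea roots (Camellia sinensis, genotype “1511”) in solution without K, either with K on the other side of the same root system (Sp.SK) or with no K on either side (U.SK). Its members were chosen by treatment label and not by any measured value, and they are 6 of the 24 libraries of the series, 3 for each condition. Root RNA of 2 genotypes, “1511”, which tolerates low K, and “1601”, which does not, was sequenced under 4 conditions. Plants stood in boxes of 12 with the roots divided over 2 compartments, were grown for 60 days with 1 mM K2SO4, and were then treated for 5 days. On Sp.SK the sampled side held 0 mM K2SO4 and the other side 1 mM, and on U.SK both sides held 0 mM. K was withheld as its sulfate and the methods name no salt in its place, so the other side differed in sulfate supply as well as in K, with the remaining listed salts alike. The K-fed side of the same plants as Sp.SK (Sp.NK) and plants with 1 mM on both sides (U.NK) are given only as levels for reference. The comparison asks how roots in the same K-free solution differ with the K supply of the rest of the root system. The methods state 3 replicates per treatment, without saying how root boxes map to libraries. The p-values rest on the spread between libraries within groups, estimated jointly over all 24 libraries. They do not measure the spread of the 3 U.SK libraries alone, which was larger than that of Sp.SK (biological coefficient of variation 0.339 against 0.275).

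K is the main cation of the plant cell, and K taken up by one part of a root system is carried to other parts through xylem and phloem. Phenylalanine ammonia-lyase opens the phenylpropanoid pathway, from which chalcone synthase leads to the flavonoids and catechins of tea, and laccases and peroxidases to lignin. Heat shock factors are regulators that switch on chaperones such as the small heat shock proteins, which keep damaged proteins from clumping.

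The deposited table gives reads per gene for 48505 genes, without gene symbols, so genes are named by identifier and by the Pfam protein domain of their description. Between 13214833 and 26309637 reads fell on genes per library over the series, with 15798906 to 26309637 in the Sp.SK libraries and 15006288 to 16731022 in the U.SK libraries. Levels are given as CPM, the reads of a gene per 1000000 reads of its library after TMM scaling, and changes as log2 fold changes of Sp.SK over U.SK with their standard error. A gene was called at a Benjamini-Hochberg adjusted p-value under 0.05 in edgeR's quasi-likelihood test, and 35557 genes had enough reads to be tested. U.SK library 3 stood apart from its group. Its log2 CPM values correlated with those of U.SK libraries 1 and 2 at 0.9403 and 0.9421, and with those of the Sp.SK libraries at 0.8941 to 0.9372, whereas U.SK libraries 1 and 2 correlated with each other at 0.9718. Of the genes lower on Sp.SK, U.SK library 3 was the closest of the 3 U.SK libraries to the Sp.SK mean in 72.3%, against 53.1% of the genes higher on Sp.SK and 46.1% of all genes tested. The part that this library's condition had in the results was not tested, and values without it are given beside the results that rest most on it.

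Expression differed widely between the K-free roots. On Sp.SK 6177 genes were higher and 4895 lower than on U.SK, 11072 of 35557 or 31.1% of the genes tested, with 17.4% called higher and 13.8% called lower. The rises were larger than the falls. The median log2 fold change of the called genes was 1.56 for the higher ones and -0.92 for the lower ones, and 2307 genes were at least 4-fold higher against 677 at least 4-fold lower. The median over all genes tested was 0.00, with TMM or with DESeq2 size factors. The 3 Sp.SK libraries all lay above the 3 U.SK libraries in 22.1% of the genes tested and all below them in 20.2%. The number of calls depended on the libraries. It was 6676 without Sp.SK library 1, the deepest one, 6349 without U.SK library 1, and 11496 without U.SK library 3, and 3318 of the higher and 1726 of the lower genes were called with each of the 6 libraries left out in turn. Many counts in the lists below likewise depended on Sp.SK library 1 or U.SK library 1, and small ones of under 5 genes often on others, so counts without a library are given where the count of 5 or more genes moved by over 1.5 times.

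**Figure D1:**
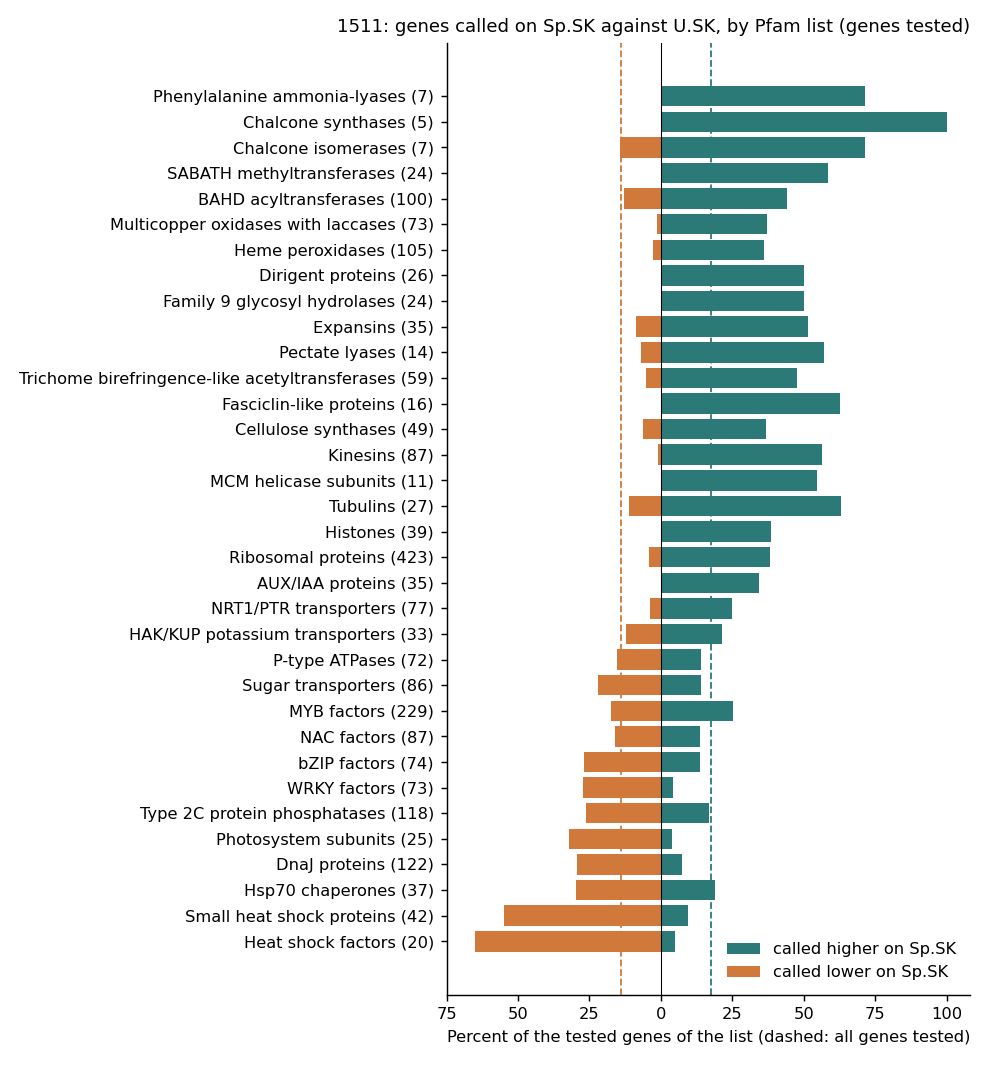
Share of the tested genes of 34 Pfam lists that were called higher (right) or lower (left) on Sp.SK than on U.SK in “1511”, in percent, with the number of genes tested in parentheses and dashed lines at the shares over all genes tested, 17.4% higher and 13.8% lower. Lists of phenolic, wall and division genes extend to the right, up to 5 of 5 chalcone synthases, and heat shock factors (13 of 20) and small heat shock proteins (23 of 42) to the left.

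Genes that open the phenylpropanoid and flavonoid pathways were higher on Sp.SK. All 5 chalcone synthase genes tested rose, with a median log2 fold change of 4.08, and so did 5 of 7 phenylalanine ammonia-lyases (median 1.28) and 5 of 7 chalcone isomerases (median 1.5), which close the flavonoid ring, while 1 isomerase fell. The chalcone synthase with the clearest rise, TEA023340 (scaffold 2074, 555278 to 556989, minus strand), had 120, 45.7 and 98.1 CPM on Sp.SK, against 0.49, 1.40 and 0.195 CPM on U.SK. The lowest Sp.SK library was thus far above the highest U.SK library, with a log2 fold change of 7.01 ± 0.96 (SE, adjusted p = 0.00016). The most expressed chalcone synthase per gene length, TEA034042, had 178, 67.1 and 163 CPM on Sp.SK, against 11.9, 9.73 and 10.8 CPM on U.SK (log2 fold change 3.65 ± 0.65, adjusted p = 0.000713). Summed over the 5 genes, the level was 364, 141 and 315 CPM on Sp.SK and 14.6, 14 and 14 CPM on U.SK, so that the U.SK libraries, library 3 included, differed little among themselves. The chalcone isomerase TEA034003 was both the most expressed and the clearest riser of its list, with 60.0, 27.0 and 43.7 CPM on Sp.SK and 6.21, 4.28 and 4.55 CPM on U.SK (log2 fold change 3.12 ± 0.47, adjusted p = 0.000267).

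Within the ammonia-lyases the change was not shared by the most expressed gene. TEA023243 (scaffold 12129, 130132 to 135072, minus strand) had 50.5, 14.3 and 30.7 CPM on Sp.SK, against 0.572, 0.934 and 1.10 CPM on U.SK, a log2 fold change of 5.17 ± 0.74 (adjusted p = 0.0002). TEA003374, the most expressed member, had 433, 239 and 251 CPM on Sp.SK and 268, 342 and 400 CPM on U.SK, values that overlap (log2 fold change -0.13 ± 0.32, adjusted p = 0.80). The list's count fell to 2 of 7 without Sp.SK library 1 and to 2 of 7 without U.SK library 1. Its summed level overlapped, with 963, 524 and 691 CPM on Sp.SK and 373, 525 and 666 CPM on U.SK.

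Families that act further down these pathways moved mostly upward as well. Laccases and related multicopper oxidases, which couple lignin precursors, had 27 of 73 genes higher and 1 lower (median log2 fold change 1.33). Heme peroxidases had 38 of 105 higher and 3 lower (median 1.04), a count of 23 without Sp.SK library 1 and 22 without U.SK library 1. Dirigent proteins, which guide the coupling of phenolic radicals, had 13 of 26 higher and 0 lower (median 1.99). BAHD acyltransferases, which acylate many plant phenolics, had 44 of 100 higher and 13 lower (median 1.57), with 28 higher without Sp.SK library 1 and 7, 7 and 8 lower without Sp.SK library 3, U.SK library 1 and U.SK library 2. Summed levels overlapped for the multicopper oxidases, with 1357, 864 and 1041 CPM on Sp.SK and 580, 622 and 1072 CPM on U.SK. They also overlapped for the BAHD acyltransferases (1819, 1585 and 1498 CPM on Sp.SK, 1604, 1723 and 1611 CPM on U.SK). The sums of the peroxidases and dirigent proteins did not overlap.

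The peroxidase TEA028298 had 109, 74.0 and 79.7 CPM on Sp.SK, against 4.41, 6.93 and 4.68 CPM on U.SK (log2 fold change 4.03 ± 0.49, adjusted p = 0.000111). The laccase-type gene TEA016093 had 28.6, 30.9 and 11.9 CPM on Sp.SK, against 1.06, 0.934 and 0.714 CPM on U.SK (log2 fold change 4.72 ± 0.64, adjusted p = 0.000149). The Sp.SK and U.SK libraries were well apart for both genes, whereas the most expressed members of both lists, the peroxidase TEA029025 (log2 fold change 0.11 ± 0.57) and the laccase-type TEA020236 (0.14 ± 0.40), had overlapping libraries and were not called. The large families of cytochrome P450s (83 higher and 39 lower of 324), UDP-glycosyltransferases (74 and 31 of 241) and 2-oxoglutarate dioxygenases (40 and 20 of 154) moved in both directions, with medians of 0.15, 0.38 and 0.40. Without Sp.SK library 1 the counts were 50 and 17 for the P450s and 49 and 17 for the glycosyltransferases, and without U.SK library 1 they were 57 and 18, and 49 and 20. The lower ones numbered 25 and 20 without Sp.SK library 2 and 25 and 17 without U.SK library 2. The P450 TEA006847 had 134, 84.6 and 95.1 CPM on Sp.SK and 4.74, 4.83 and 4.03 CPM on U.SK, again with no overlap (log2 fold change 4.53 ± 0.55, adjusted p = 0.000111).

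Many SABATH methyltransferases, the family to which tea caffeine synthase belongs, were higher on Sp.SK. Of 24 genes tested, 14 were higher and 0 lower, with a median log2 fold change of 2.75, and the count was 11 to 14 with any 1 of the 6 libraries left out. The description does not tell caffeine synthase from the other methyltransferases of the family. TEA028050, the most expressed member, had 322, 253 and 178 CPM on Sp.SK, against 11.4, 12.6 and 7.73 CPM on U.SK (log2 fold change 4.57 ± 0.81, adjusted p = 0.000711). TEA015791 (scaffold 3514, 590628 to 597175, plus strand) had 275, 116 and 165 CPM on Sp.SK, against 6.62, 6.23 and 3.70 CPM on U.SK (log2 fold change 5.08 ± 0.85, adjusted p = 0.000486). In both genes even the lowest Sp.SK library exceeded the highest U.SK library by more than 10-fold.

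**Figure D2:**
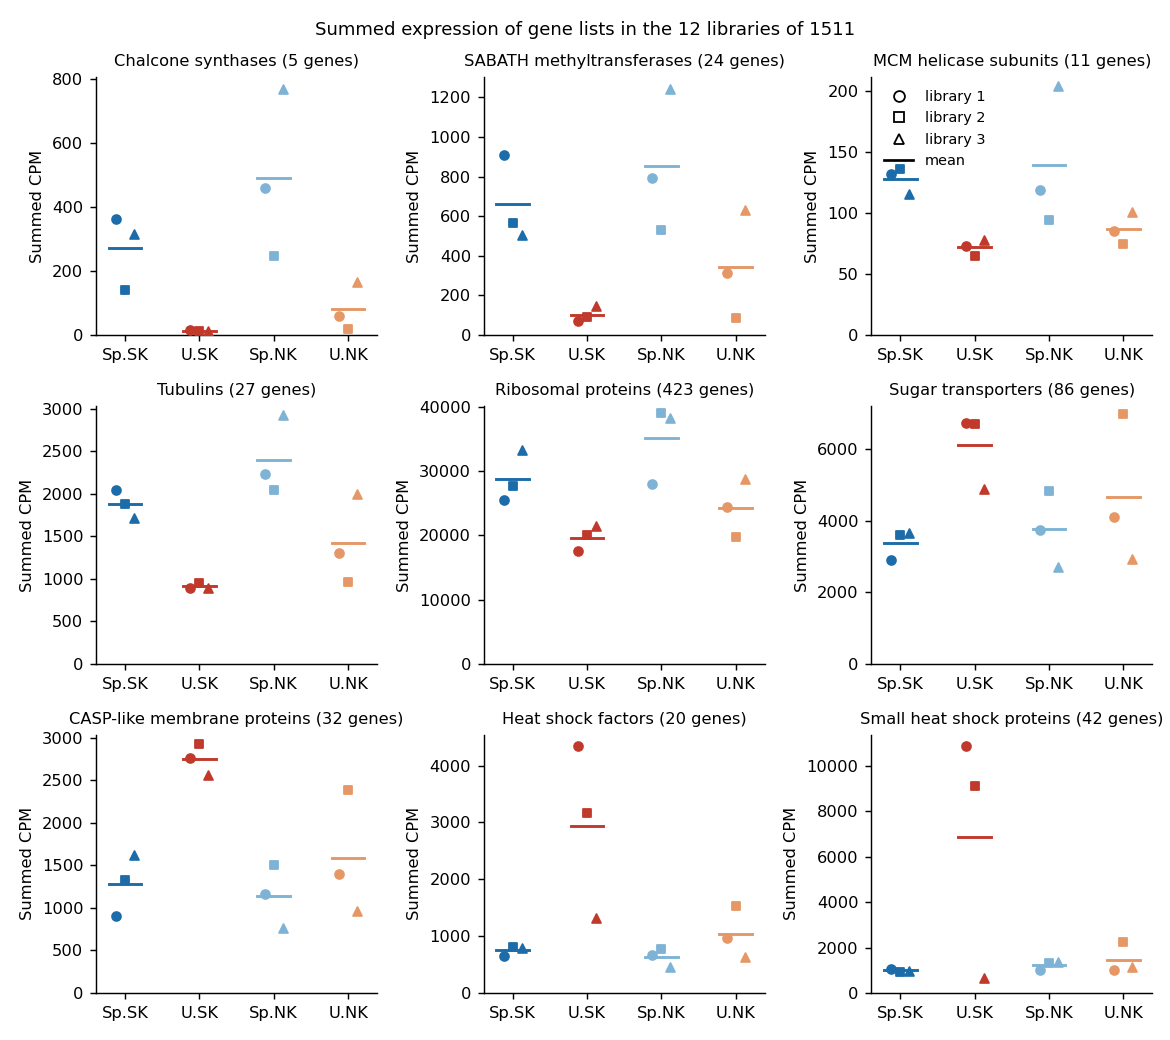
Summed CPM of 9 gene lists in each of the 12 libraries of “1511”, by condition, with the mean of the 3 libraries as a bar. The first 5 lists are higher in all 3 Sp.SK libraries than in all 3 U.SK libraries (chalcone synthases 141 to 364 against 14 to 14.6 CPM), sugar transporters and CASP-like proteins are lower, and small heat shock proteins are high in U.SK libraries 1 and 2 (10853 and 9131 CPM) but not in U.SK library 3 (665 CPM).

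Genes of cell wall synthesis and loosening were higher on Sp.SK in many families. Expansins, which loosen walls during growth, had 18 of 35 genes higher and 3 lower (median log2 fold change 1.36), family 9 glycosyl hydrolases (endoglucanases) 12 of 24 higher and 0 lower (median 1.13), and fasciclin-like proteins 10 of 16 higher and 0 lower (median 1.81). Pectate lyases, which cut pectin, had 8 of 14 higher and 1 lower (median 3.29), trichome birefringence-like acetyltransferases, which acetylate wall polysaccharides, 28 of 59 and 3, and cellulose synthases 18 of 49 and 3, the last with 11 higher without Sp.SK library 1. Polygalacturonases had 13 of 32 higher and 2 lower, but 4 higher without U.SK library 1, 5 without Sp.SK library 1, 7 without U.SK library 2 and 8 without Sp.SK library 2 or U.SK library 3.

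The endoglucanase TEA026325 had 69.5, 58.1 and 59.8 CPM on Sp.SK, against 3.02, 1.56 and 3.64 CPM on U.SK (log2 fold change 4.50 ± 0.63, adjusted p = 0.000173). The cellulose synthase TEA022390 had 29.3, 28.9 and 18.0 CPM on Sp.SK, against 0.899, 1.71 and 1.49 CPM on U.SK (log2 fold change 4.20 ± 0.47, adjusted p = 0.00011). The fasciclin-like TEA025346 had 47.1, 45 and 31.6 CPM on Sp.SK, against 8.34, 7.16 and 4.42 CPM on U.SK (log2 fold change 2.64 ± 0.32, adjusted p = 0.000111). All 3 genes separated the conditions without overlap. The most expressed pectinesterase, TEA004576, which removes methyl groups from pectin, did so too, with 677, 336 and 518 CPM on Sp.SK and 78.6, 119 and 81.3 CPM on U.SK (log2 fold change 2.46 ± 0.43, adjusted p = 0.000607). The most expressed cellulose synthase, TEA004022, was lower on Sp.SK, with 93.5, 150 and 143 CPM, against 207, 205 and 257 CPM on U.SK (log2 fold change -0.79 ± 0.25, adjusted p = 0.021). Without Sp.SK library 1 its adjusted p was 0.117, and without U.SK library 3 0.0657. The most expressed endoglucanase TEA029958 (log2 fold change 1.48) and fasciclin-like TEA026910 (2.17) rose. The most expressed pectate lyase TEA015625 (-0.06) and acetyltransferase TEA002486 (-1.19) were not called.

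The summed level of a wall list did not always follow its count. Expansins summed to 935, 961 and 970 CPM on Sp.SK and 993, 944 and 1006 CPM on U.SK, which overlap, and the most expressed member, TEA022147, had 204, 193 and 386 CPM on Sp.SK and 470, 428 and 550 CPM on U.SK (log2 fold change -0.89 ± 0.52, adjusted p = 0.199). Xyloglucan endotransglucosylases, which cut and rejoin wall hemicellulose, were divided, with 11 of 35 higher and 4 lower, and 7 higher without Sp.SK library 1, U.SK library 1 or U.SK library 3. None was lower without U.SK library 1 or 2. The CASP-like membrane proteins are a family of which some members lay out the Casparian strip of the endodermis, and the description does not tell these from the others. The list summed to 907, 1329 and 1618 CPM on Sp.SK, below the 2760, 2928 and 2568 CPM on U.SK, although 9 of its 32 genes were higher and 1 lower (5 higher without U.SK library 1). That 1 gene, TEA031033, which also carries a CHY zinc finger domain, made up most of the sum. It had 560, 968 and 1249 CPM on Sp.SK and 2520, 2677 and 2292 CPM on U.SK (log2 fold change -1.43 ± 0.40, adjusted p = 0.0117, and 0.0683 without Sp.SK library 1).

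Many genes of dividing and growing cells were higher on Sp.SK. Kinesins, the motors of spindle and cell plate, had 49 of 87 higher and 1 lower (median log2 fold change 1.22), tubulins 17 of 27 and 3 (median 0.98), histones 15 of 39 and 0 (median 0.49), and subunits of the MCM helicase, which opens DNA for replication, 6 of 11 and 0 (median 2.94). Without Sp.SK library 1 the kinesins had 32 higher. Summed histone levels overlapped, with 2470, 3278 and 3523 CPM on Sp.SK and 2786, 3082 and 3151 CPM on U.SK, and the most expressed histone, TEA002422, was not called (log2 fold change -0.14 ± 0.19, adjusted p = 0.612). In bulk roots, more cells of a type and more RNA per cell of that type cannot be told apart.

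The MCM subunit TEA001647 had 13.1, 11.4 and 8.08 CPM on Sp.SK, against 0.49, 0.0779 and 0.649 CPM on U.SK (log2 fold change 4.69 ± 0.61, adjusted p = 0.000142). The cyclin TEA014197 had 40.9, 29.9 and 20.4 CPM on Sp.SK, against 0.572, 0.545 and 1.43 CPM on U.SK (log2 fold change 5.12 ± 0.65, adjusted p = 0.000118). Both genes were close to silent on U.SK. Cyclins as a whole were divided, with 21 of 52 higher and 7 lower (11 and 2 without Sp.SK library 1, and 1, 2 and 4 lower without U.SK library 1, U.SK library 2 and Sp.SK library 3), and summed to 723 to 759 CPM on Sp.SK and 723 to 794 CPM on U.SK. The most expressed tubulin, TEA014466, had 933, 779 and 672 CPM on Sp.SK, against 223, 277 and 226 CPM on U.SK, with no overlap (log2 fold change 1.72 ± 0.33, adjusted p = 0.00113).

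Ribosomal protein genes rose by small amounts in large numbers. Of 423 tested, 162 were higher and 18 lower, with a median log2 fold change of 0.53, and their summed level was 25444, 27734 and 33297 CPM on Sp.SK, above the 17524, 19984 and 21433 CPM on U.SK. The count of higher genes was 104 without Sp.SK library 3 and 101 without U.SK library 1, and that of lower genes 9, 6 and 11 without Sp.SK library 1, U.SK library 1 and U.SK library 2. The clearest single rise, in TEA019770 (ribosomal protein S9/S16), was to 25, 27.3 and 31.7 CPM on Sp.SK, against 9.56, 11.1 and 14.1 CPM on U.SK (log2 fold change 1.27 ± 0.19, adjusted p = 0.000232).

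K transporters moved in both directions. Of 33 HAK/KUP genes, which code for high-affinity and related K carriers, 7 were higher and 4 lower (median log2 fold change 0.11), shares of 21.2% and 12.1% that are near those of all genes, and 4 were higher without Sp.SK library 1 or without U.SK library 1. TEA005066, the most expressed HAK/KUP gene, was lower on Sp.SK with 193, 327 and 325 CPM, against 722, 620 and 584 CPM on U.SK (log2 fold change -1.19 ± 0.29, adjusted p = 0.00478). TEA003873 was higher on Sp.SK with 147, 134 and 66.8 CPM, against 19.3, 30.9 and 34.0 CPM on U.SK (log2 fold change 2.04 ± 0.37, adjusted p = 0.000824). The 2 genes thus separated the conditions in opposite directions, and U.SK library 3 lay with its group in both.

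Channels and the kinases that regulate them moved in both directions. Ion channels had 7 of 40 genes higher and 4 lower (4 higher without U.SK library 2). Their shares, 17.5% and 10%, were near the 17.4% and 13.8% of all genes tested. CIPK kinases, which act on K channels and carriers together with calcineurin B-like calcium sensors, had 10 of 30 higher and 6 lower, shares of 33.3% and 20%. The kinases had 4 higher without Sp.SK library 1 and 5 without U.SK library 1, and 3 lower without any 1 of the Sp.SK libraries or U.SK library 1 and 1 without U.SK library 2. The channel-type gene TEA010797, which carries the ion transport and KHA domains of Shaker-type K channels, had 16.6, 17.6 and 13.9 CPM on Sp.SK, against 39.1, 43.5 and 33.8 CPM on U.SK, without overlap (log2 fold change -1.27 ± 0.31, adjusted p = 0.00496).

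Other carriers included larger changes. The ammonium transporter TEA003718 had 64.3, 72.7 and 35.1 CPM on Sp.SK, against 2.70, 2.34 and 0.13 CPM on U.SK (log2 fold change 5.10 ± 0.79, adjusted p = 0.000286). The P-type ATPase TEA011305 had 338, 205 and 88.2 CPM on Sp.SK, against 12.7, 21.9 and 13.0 CPM on U.SK (log2 fold change 3.73 ± 0.61, adjusted p = 0.000398). The aquaporin TEA024296 had 300, 247 and 152 CPM on Sp.SK, against 23.9, 33.2 and 8.44 CPM on U.SK (log2 fold change 3.42 ± 0.57, adjusted p = 0.000483). These 3 genes rose while their families did not move one way: ammonium transporters had 4 of 10 higher and 1 lower, P-type ATPases 10 of 72 higher and 11 lower, and aquaporins 10 of 42 higher and 4 lower. The ATPase shares, 13.9% and 15.3%, were near the 17.4% and 13.8% of all genes tested. The 4 ammonium transporters became 1 without Sp.SK library 2 or U.SK library 1, 2 without U.SK library 2, and 1 in DESeq2. The 11 lower ATPases became 1 without Sp.SK library 1, 3 without U.SK library 1, 6 without U.SK library 2 and 7 without Sp.SK library 3 or U.SK library 3. The most expressed aquaporin, TEA027942, was lower on Sp.SK with 655, 1326 and 1257 CPM, against 3861, 3132 and 2783 CPM on U.SK (log2 fold change -1.59 ± 0.50, adjusted p = 0.0201), a call that was lost without Sp.SK library 1 (adjusted p = 0.0985) and without U.SK library 1 (0.0729). The nitrate and peptide transporters of the NRT1/PTR family had 19 of 77 higher and 3 lower (median 0.20).

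Lists of organic acid synthesis and release were divided. Malic enzymes, which turn malate into pyruvate, had 5 of 43 higher and 5 lower (median log2 fold change -0.14) and citrate synthases 1 of 6 and 1. The malic enzyme shares, 11.6% each way, were under the 17.4% and 13.8% of all genes tested. Phosphoenolpyruvate carboxylases, which feed carbon into malate and citrate, had 5 of 11 higher and 0 lower (3 higher without Sp.SK library 1), malate and lactate dehydrogenases 6 of 16 and 0, and aluminium-activated malate transporters, the family of malate-releasing channels, 6 of 16 and 3 (3 higher without Sp.SK library 1, U.SK library 1 or U.SK library 2). The malate transporter TEA013305 had 11.7, 9.49 and 11.4 CPM on Sp.SK, against 0.899, 0.467 and 0.584 CPM on U.SK (log2 fold change 4.06 ± 0.44, adjusted p = 0.00011). The carboxylase TEA029174 had 84.4, 71.4 and 33.9 CPM on Sp.SK, against 13.9, 14.2 and 12.9 CPM on U.SK (log2 fold change 2.21 ± 0.41, adjusted p = 0.000892). Both rose in all 3 libraries, whereas the most expressed carboxylase, TEA026705, overlapped, with 465, 370 and 240 CPM on Sp.SK and 341, 439 and 108 CPM on U.SK (log2 fold change 0.28 ± 0.35, adjusted p = 0.577). MATE transporters, which export citrate and phenolics, were divided, with 20 of 63 higher and 11 lower, and 2 lower without Sp.SK library 1 and 6 without U.SK library 2. The most expressed citrate synthase, TEA005456, was lower on Sp.SK with 242, 262 and 263 CPM, against 556, 516 and 434 CPM on U.SK (log2 fold change -0.97 ± 0.19, adjusted p = 0.00112).

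Several of the most expressed genes of sugar turnover were lower on Sp.SK. Sucrose synthase TEA017533, which splits sucrose in sink tissues, had 596, 489 and 478 CPM on Sp.SK, against 2173, 1997 and 760 CPM on U.SK (log2 fold change -1.66 ± 0.35, adjusted p = 0.00203). The trehalose-phosphate synthase TEA032655 had 182, 233 and 210 CPM on Sp.SK, against 854, 770 and 433 CPM on U.SK (log2 fold change -1.72 ± 0.35, adjusted p = 0.00151). In both genes the libraries did not overlap and U.SK library 3 was the lowest of its group. Raffinose synthase TEA003419 had 1081, 2228 and 1740 CPM on Sp.SK, against 5824, 5374 and 3908 CPM on U.SK (log2 fold change -1.58 ± 0.45, adjusted p = 0.0123, and 0.0678 without Sp.SK library 1). Sugar transporters as a list had 12 of 86 higher and 19 lower (median log2 fold change -0.21), but 6 lower without Sp.SK library 1, 7 without U.SK library 1 and 11 without U.SK library 2, and summed to 2906, 3597 and 3662 CPM on Sp.SK and 6726, 6711 and 4885 CPM on U.SK. Sucrose, trehalose-phosphate and raffinose synthases as lists had 1, 6 and 1 genes higher and 1, 5 and 1 lower of 10, 22 and 11 tested, with 1 lower trehalose-phosphate synthase without Sp.SK library 1 and 3 without U.SK library 1. The sucrose and raffinose synthase shares, 10% and 9.09% each way, were under the 17.4% and 13.8% of all genes tested. The trehalose-phosphate synthase shares were 27.3% and 22.7%. Starch synthases had 3 of 14 higher and 2 lower, shares of 21.4% and 14.3% that are near those of all genes tested. The clearest rise was that of TEA018905, with 56.8, 51.9 and 40.6 CPM on Sp.SK, against 1.06, 2.18 and 2.53 CPM on U.SK (log2 fold change 4.67 ± 0.64, adjusted p = 0.000162). The most expressed starch synthase, TEA031081, overlapped, with 267, 393 and 285 CPM on Sp.SK and 446, 378 and 440 CPM on U.SK (log2 fold change -0.42 ± 0.19, adjusted p = 0.103).

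Some genes were also measured by qRT-PCR on RNA of the same samples, a choice that the methods call random. However, they include TEA026325, TEA008079, TEA014414 and TEA023084, which the paper names as key genes from these sequencing data. The set is thus not independent of the counts. Of these 20 genes, 18 were higher on Sp.SK and 1 lower in the sequencing counts, beside 17.4% and 13.8% of all genes tested. Their median log2 fold change was 2.55. They include carbohydrate genes such as the family 1 beta-glucosidase TEA008079, with 26.1, 16.9 and 16.9 CPM on Sp.SK and 2.94, 2.41 and 4.42 CPM on U.SK (log2 fold change 2.61 ± 0.42, adjusted p = 0.00034). The 1 lower gene was the O-methyltransferase TEA030958, with 12.5, 4.81 and 10.9 CPM on Sp.SK and 41.4, 24.7 and 9.68 CPM on U.SK, where U.SK library 3 lay within the Sp.SK range (log2 fold change -1.42 ± 0.45, adjusted p = 0.0235, and 0.202, 0.098 and 0.0532 without U.SK library 1, Sp.SK library 2 and U.SK library 2, but 0.00374 with a log2 fold change of -1.80 without U.SK library 3). The peroxidase TEA021599 was not called (log2 fold change 1.41 ± 0.79, adjusted p = 0.183), and among the 18 rises the call of the peroxidase TEA023936 was lost without Sp.SK library 1 (adjusted p = 0.0701), U.SK library 1 (0.0623) or U.SK library 2 (0.0506), and that of TEA005755 without Sp.SK library 1 (0.0668), Sp.SK library 3 (0.0809), U.SK library 1 (0.0684) or U.SK library 2 (0.0702).

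Auxin-related genes rose in part. AUX/IAA proteins, repressors that are themselves induced by auxin, had 12 of 35 higher and 0 lower (median log2 fold change 0.50), and PIN-type auxin carriers 8 of 17 and 1 (median 0.71). The most expressed AUX/IAA gene, TEA015496, had 320, 244 and 286 CPM on Sp.SK, against 59.3, 69.9 and 59.2 CPM on U.SK (log2 fold change 2.17 ± 0.33, adjusted p = 0.000265). The PIN-type carrier TEA014055 had 31.5, 35.2 and 29.2 CPM on Sp.SK, against 5.15, 4.28 and 3.57 CPM on U.SK (log2 fold change 2.88 ± 0.49, adjusted p = 0.000524). Both separated the conditions in every library. Auxin response factors (5 of 24 higher and 2 lower, 3 higher without U.SK library 1) and GH3 conjugating enzymes (4 of 19 and 5, with 1 lower without Sp.SK library 1 and 3 without U.SK library 2 or 3), which inactivate auxin by joining it to amino acids, moved in both directions. Their higher shares, 20.8% and 21.1%, were near the 17.4% of all genes tested. Their lower shares were 8.33% and 26.3%, beside 13.8% of all genes tested.

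**Figure D3:**
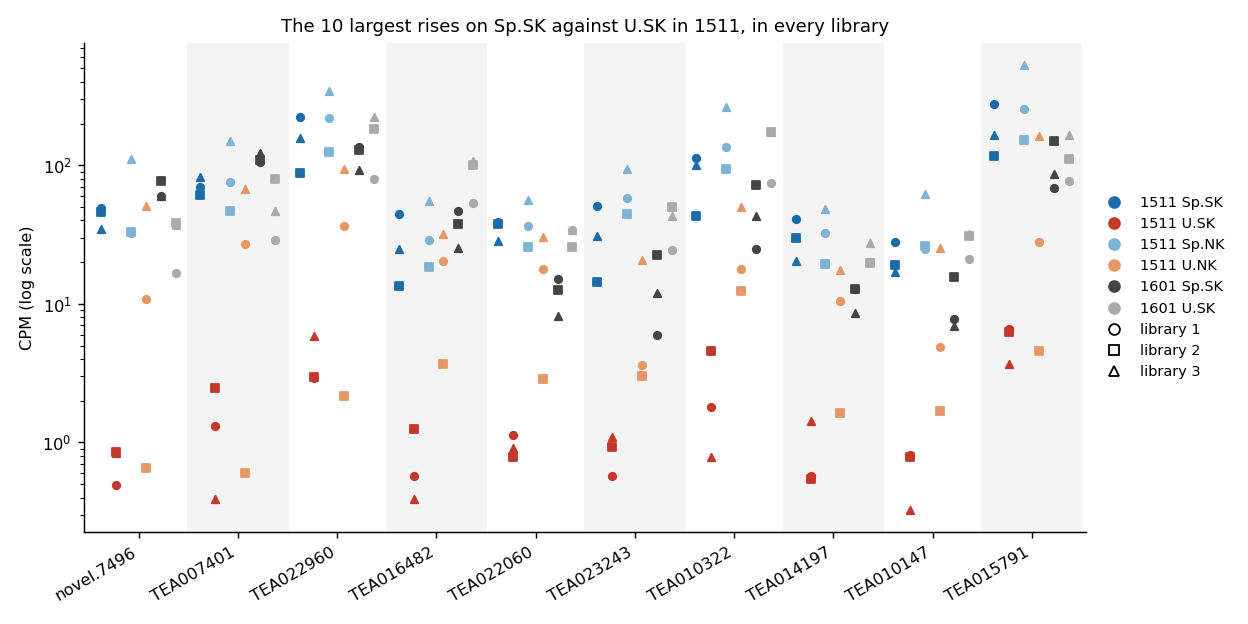
CPM on a log scale of the 10 genes with the largest rises on Sp.SK over U.SK in “1511”, in all libraries of 6 groups, with the marker giving the library number. All 3 Sp.SK libraries lie above all 3 U.SK libraries in each gene, and U.NK library 2 is the lowest of the U.NK libraries in all 10.

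The 10 largest rises were taken among called genes with a Pfam description, a mean of at least 10 CPM over the 6 libraries, more than 3 counts in every library and no overlap between the conditions, which 1894 higher genes met. Their log2 fold changes ran from 5.08 to 5.86, with adjusted p-values of 0.000111 to 0.000512. Besides TEA023243, TEA014197 and TEA015791 above, they were a newly assembled gene of the bicarbonate transporter family, to which plant borate exporters belong (scaffold 3245, 2126949 to 2132048, plus strand), TEA007401 (an EamA-like transporter), TEA022960 (an NAD-dependent epimerase or dehydratase, a family that includes reductases of the flavonoid and lignin pathways), the 2-oxoglutarate dioxygenases TEA016482 and TEA010322, TEA022060 (a family 5 cellulase) and the peroxidase TEA010147. TEA007401 (scaffold 3775, 768457 to 774949, minus strand) had 70.1, 60.9 and 82.0 CPM on Sp.SK, against 1.31, 2.49 and 0.39 CPM on U.SK (log2 fold change 5.69 ± 0.96). TEA022960 (scaffold 1341, 4830581 to 4834542, plus strand) had 224, 87.4 and 157 CPM on Sp.SK, against 2.94, 2.96 and 5.84 CPM on U.SK (log2 fold change 5.30 ± 0.83). All 10 stayed called with any 1 of the 6 libraries left out, with a highest adjusted p of 0.00557, without U.SK library 1.

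The K-fed plants did not form one level for these genes. TEA022960 had 36.3, 2.16 and 94.8 CPM in the 3 U.NK libraries and 218, 124 and 342 CPM in the Sp.NK libraries, which are the K-fed side of the Sp.SK plants. U.NK library 2 was thus below the U.SK libraries and U.NK library 3 within the Sp.SK range, and in all 10 genes U.NK library 2 was the lowest of its group. Chalcone synthases summed to 58.9, 18.5 and 166 CPM on U.NK and 461, 247 and 769 CPM on Sp.NK. U.NK library 2 also stood apart over all genes tested. On the first principal component of the “1511” libraries (53.4% of the variance) it lay at 121, within the 103 to 175 of U.SK. U.NK libraries 1 and 3 lay at 5.19 and -74, and the Sp.SK and Sp.NK libraries at -138 to -49. Why a library with K on both sides lay among those of U.SK was not tested.

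A further 789 called genes had at most 3 counts in every U.SK library, against 106 with at most 3 counts in every Sp.SK library, and no fold change is given for them. Of the 789, 540 carried a Pfam description. The examples with the highest Sp.SK levels, chosen after their values were seen, differed much between the Sp.SK libraries. TEA010785 (a family 16 glycosyl hydrolase) had 921, 330 and 343 counts on Sp.SK and 0, 3 and 0 counts on U.SK. TEA012822 (an O-methyltransferase) had 604, 50 and 389 counts on Sp.SK and 0 in each U.SK library. TEA002651 (a major facilitator transporter) had 1640, 236 and 62 counts on Sp.SK and 0 in each U.SK library, so that Sp.SK library 1 carried most of its reads. Among the genes picked from the lists, the AP2 factor TEA012509 (7.25, 7.18 and 4.12 CPM on Sp.SK) and the acetyltransferase TEA029589 (9.31, 7.00 and 4.91 CPM) had 0 counts in all 3 U.SK libraries.

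Chaperones and their regulators were lower on Sp.SK, and here the U.SK libraries disagreed. Heat shock factors had 13 of 20 genes lower and 1 higher (median log2 fold change -0.73), small heat shock proteins 23 of 42 lower and 4 higher (median -2.04), Hsp70 chaperones 11 of 37 lower and 7 higher (median -0.15), and DnaJ proteins, which hand clients to Hsp70, 36 of 122 lower and 9 higher (median -0.22). The small heat shock proteins summed to 1072, 928 and 968 CPM on Sp.SK, against 10853, 9131 and 665 CPM on U.SK. The high level was thus that of U.SK libraries 1 and 2, and U.SK library 3 lay below all 3 Sp.SK libraries. Heat shock factors summed to 641, 815 and 783 CPM on Sp.SK, against 4344, 3161 and 1312 CPM on U.SK, and Hsp70 chaperones to 3382, 4536 and 3750 CPM on Sp.SK, against 10364, 8229 and 3018 CPM on U.SK. The 6 libraries did not overlap in 84.2% of all genes called lower. Within these lists they did not overlap in 4 of 23 small heat shock proteins, 3 of 11 Hsp70 chaperones and 23 of 36 DnaJ proteins called lower, and in 11 of 13 heat shock factors, close to the share of all. Without U.SK library 3 the lower genes numbered 24, 16, 12 and 32 in small heat shock proteins, Hsp70 chaperones, heat shock factors and DnaJ proteins, and without U.SK library 1 they numbered 19, 7, 10 and 19. The DnaJ proteins also had 18 lower without Sp.SK library 1 and 20 without U.SK library 2, and 14 higher without U.SK library 3, and the Hsp70 chaperones 3 higher without U.SK library 1.

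The heat shock factor TEA005927, the most expressed of its list per gene length, had 21.2, 27.8 and 17.6 CPM on Sp.SK, against 1280, 738 and 26.8 CPM on U.SK. Its log2 fold change was -4.94 ± 0.80 (adjusted p = 0.00041) with all libraries, -5.50 without U.SK library 3 and -4.10 without U.SK library 1. U.SK library 3 lay within the Sp.SK range, so the change rests on U.SK libraries 1 and 2. The most expressed small heat shock protein, TEA004360 (scaffold 5679, 8257 to 8739, plus strand), showed the same, with 140, 115 and 90.0 CPM on Sp.SK and 1451, 1420 and 72.3 CPM on U.SK (log2 fold change -3.09 ± 0.62, adjusted p = 0.00151, and -3.64 without U.SK library 3). The most expressed Hsp70, TEA016722, had 505, 629 and 372 CPM on Sp.SK and 2259, 1841 and 387 CPM on U.SK, and its call (log2 fold change -1.57 ± 0.41, adjusted p = 0.00802) was lost without U.SK library 1 (0.0699), while its log2 fold change was -2.03 without U.SK library 3. On U.NK, with K on both sides, the small heat shock proteins summed to 1029, 2259 and 1124 CPM, so that library 2 was again the high one.

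**Figure D4:**
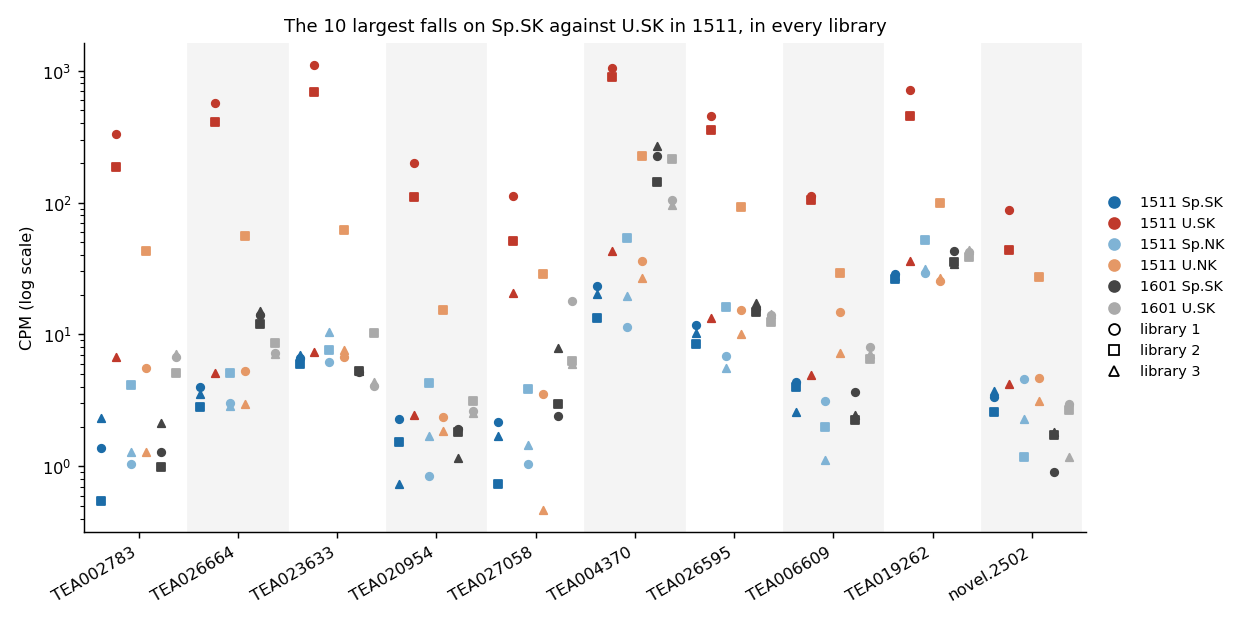
CPM on a log scale of the 10 genes with the largest falls on Sp.SK against U.SK in “1511”, in all libraries of 6 groups, with the marker giving the library number. The lower of U.SK libraries 1 and 2 is 11.6 to 103 times the highest Sp.SK library, U.SK library 3 only 1.05 to 9.54 times, and U.NK library 2 is the highest U.NK library in all 10 genes.

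The 10 largest falls by the same rule, which 2442 lower genes met, ran from -3.80 to -6.94 on the log2 scale (adjusted p = 0.00065 to 0.00476). They were 2 small heat shock proteins (TEA026664 and TEA004370), a heat shock factor (TEA023633), a WRKY factor (TEA027058), an AP2 factor (TEA026595), a UDP-glycosyltransferase (TEA006609), a SOR/SNZ protein of the vitamin B6 pathway (TEA019262), a trypsin-like peptidase (TEA020954), a DUF716 protein (TEA002783) and a newly assembled gene with DUF5009 and chromo domains (scaffold 1583, 226897 to 234659, plus strand). TEA023633 (scaffold 1243, 1037225 to 1040235, plus strand) had 6.63, 5.96 and 7.00 CPM on Sp.SK, against 1105, 684 and 7.34 CPM on U.SK (log2 fold change -6.52 ± 1.14, adjusted p = 0.00065, and -7.09 without U.SK library 3). TEA026664 (scaffold 2372, 283041 to 283493, minus strand) had 3.98, 2.80 and 3.56 CPM on Sp.SK, against 573, 410 and 5.13 CPM on U.SK (log2 fold change -6.57 ± 1.23, adjusted p = 0.000988, and -7.14 without U.SK library 3). U.SK library 3 was next to the Sp.SK libraries in both genes. Over the 10 genes it stood at 1.05 to 9.54 times the highest Sp.SK library, and the lower of U.SK libraries 1 and 2 at 11.6 to 103 times. All 10 stayed called with any 1 of the 6 libraries left out, with a highest adjusted p of 0.0369, without U.SK library 1, and of 0.000755 without U.SK library 3. With edgeR fitted on the 6 libraries alone, the highest adjusted p was 0.0226.

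Stress-linked regulators leaned the same way. WRKY factors, which act in defence and senescence, had 20 of 73 lower and 3 higher (median log2 fold change -0.45), bZIP factors 20 of 74 lower and 10 higher (median -0.19), and type 2C protein phosphatases, several of which hold back abscisic acid signalling, 31 of 118 lower and 20 higher (median -0.19). The lower genes were 10, 13 and 17 in these 3 lists without Sp.SK library 1, 16, 13 and 16 without U.SK library 1, 13, 11 and 18 without U.SK library 2, and 14, 19 and 32 without U.SK library 3. The higher phosphatases were 13 without Sp.SK library 1, and the higher bZIP factors 6 without U.SK library 1. Summed WRKY levels were 2229, 2387 and 2406 CPM on Sp.SK, against 3885, 4031 and 3474 CPM on U.SK, and summed bZIP levels 2783, 3404 and 3245 CPM on Sp.SK, against 5040, 4923 and 4614 CPM on U.SK. Every U.SK library was thus above every Sp.SK library for both sums. The phosphatases summed to 3920, 4286 and 4093 CPM on Sp.SK, against 5582, 5554 and 4300 CPM on U.SK, so that U.SK library 3 stood next to Sp.SK there.

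The phosphatase TEA020292 had 149, 158 and 176 CPM on Sp.SK, against 916, 680 and 275 CPM on U.SK (log2 fold change -1.96 ± 0.33, adjusted p = 0.000559). The NAC factor TEA009399, the most expressed of its list, had 217, 306 and 268 CPM on Sp.SK, against 1222, 1117 and 519 CPM on U.SK (log2 fold change -1.85 ± 0.40, adjusted p = 0.00236). U.SK library 3 was between the other U.SK libraries and Sp.SK in both. The LOB domain factor TEA013112 had 65.0, 76.5 and 50.7 CPM on Sp.SK, against 764, 874 and 68.9 CPM on U.SK, with U.SK library 3 inside the Sp.SK range (log2 fold change -3.15 ± 0.65, adjusted p = 0.00174, and -3.67 without U.SK library 3). Other LOB factors rose, such as TEA029036 with 229, 250 and 196 CPM on Sp.SK and 25.2, 42.4 and 27.1 CPM on U.SK (log2 fold change 2.83 ± 0.49, adjusted p = 0.000596), and the list had 12 of 34 higher and 6 lower. The larger families moved in both directions as well. The shares higher and lower were 13.8% and 16.1% for NAC factors and 20.4% and 18.2% for AP2/ERF factors. Both were near the 17.4% and 13.8% of all genes tested. For MYB factors the shares were 25.3% and 17.5%, and for bHLH factors 35.4% and 15.9%. NAC factors had 12 of 87 higher and 14 lower, AP2/ERF factors 28 of 137 and 25, MYB factors 58 of 229 and 40, and bHLH factors 29 of 82 and 13. Without Sp.SK library 1 these became 5 and 9, 22 and 13, 30 and 24, and 18 and 6, without U.SK library 1 they became 5 and 8, 18 and 15, 36 and 21, and 19 and 4, and without U.SK library 2 they became 6 and 11, 23 and 17, 38 and 22, and 26 and 7. The lower bHLH factors were 7 without Sp.SK library 2 and 8 without Sp.SK library 3.

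Whole Pfam descriptions carried by at least 15 tested genes were also ranked by their share of called genes. The ranking rests on the same calls as the lists above and is not independent of them. The 10 with the highest share of higher genes were led by PMR5 and GDSL acyl-esterases (13 of 19 higher, 68.4%), BURP domain proteins (10 of 16, 62.5%), SABATH methyltransferases (14 of 23, 60.9%), fasciclin domains (9 of 15) and, with the PMR5 and GDSL domains in the other order, 11 of 20. They also held dirigent proteins (12 of 22), kinesins with the motor domain alone (24 of 46), EEIG1-type C2 domains (8 of 16), the BAHD transferase family (44 of 93) and family 9 glycosyl hydrolases (8 of 17). The 10 with the highest share of lower genes were led by heat shock factors (12 of 19, 63.2%) and Hsp20 proteins (22 of 38, 57.9%), followed by RING-variant domains (9 of 19), C3HC4 zinc fingers (6 of 15) and DnaJ domains (20 of 51). Cyclins with the N-terminal domain alone (7 of 18), DEAD box helicases (8 of 23), RWP-RK factors with PB1 domains (5 of 15), Rab-GTPase-TBC domains (6 of 18) and CRM domains (6 of 18) completed them.

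Marker lists of other tissue kinds were measured beside these results. Photosystem subunits, a sign of green tissue, summed to 355, 544 and 608 CPM on Sp.SK and 1300, 1027 and 1140 CPM on U.SK, with 8 of 25 genes lower and 1 higher (5 lower without Sp.SK library 1) and 10 listed genes at 0 in all 6 libraries. The most expressed of that list, TEA006446, which also carries an NAD(P)-binding domain, had 156, 292 and 309 CPM on Sp.SK and 768, 585 and 648 CPM on U.SK. Chlorophyll a/b binding proteins summed to 171 to 197 CPM on Sp.SK and 198 to 281 CPM on U.SK, 2 of 23 being higher and 6 lower, with 0 to 3 lower when any 1 library was left out. The lists of dividing cells and of CASP-like proteins are given above, and the part of any of these lists in the other results was not tested.

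The difference between Sp.SK and U.SK was itself compared between the genotypes. It differed from that in “1601” for 4981 of 35557 genes, 14.0% of those tested, being more positive in “1511” for 3254 (9.15%) and more negative for 1727 (4.86%). The count was 2820 without U.SK library 1 of “1511”, 2909 without its Sp.SK library 1, 3301 without U.SK library 3 of “1601”, and 11337 in limma voom. The difference contains the 6 libraries of “1511”, so a gene chosen for its change in “1511” tends to show one. In “1601” 8 of the 10 top risers had a lower mean on Sp.SK than on U.SK. Outside those 10, the chalcone synthase TEA023340 had 33.2, 81.0 and 42.0 CPM on Sp.SK and 70.7, 159 and 179 CPM on U.SK in “1601”, a difference between the genotypes of 8.40 ± 1.18 on the log2 scale (adjusted p = 0.000312). All 5 chalcone synthases, 35 of 105 peroxidases and 26 of 73 laccase-type genes differed in this direction, whereas among 423 ribosomal proteins 5 differed upward and 15 downward. Of 33 HAK/KUP genes 5 differed upward and 1 downward, beside the 9.15% and 4.86% of all genes tested. The 2 K transporters described above, TEA005066 (difference -0.89 ± 0.40, adjusted p = 0.145) and TEA003873 (1.03 ± 0.51, adjusted p = 0.18), did not pass this test. A newly assembled gene with a HAK/KUP domain among others did (-1.36 ± 0.35, adjusted p = 0.0151).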

How the data were processed

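The deposited table holds the authors' raw read counts per gene and library, not normalized, and their FPKM values. Reads had been aligned with HISAT2 2.0.5 to the scaffold-level tea genome (CASAVA 1.7 is also named in the submitters' processing notes), and 14573 newly assembled genes were added to 33932 gene models. The counting program is not given in the sources used here, so reads of near-identical genes may be split between them. The deposited FPKM values were used only in alternatives.

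Counts were tested in R 4.3.3 with edgeR 4.0.16 (filterByExpr, TMM, glmQLFit and glmQLFTest) on all 24 libraries and 8 group means with 16 residual degrees of freedom, and p-values were adjusted by the Benjamini-Hochberg method over 35557 genes, of which 24481 had a Pfam description and 9869 were newly assembled. An exact permutation test of 3 libraries against 3 cannot go below 0.1 and was not used. Genes were named by rule: the 10 largest rises and falls as defined in the results, the most expressed member per gene length and the called member with the lowest p in each direction of each list, and the 20 qRT-PCR genes. Members and lists were chosen with earlier results of these data known, and lists are described by counts and medians. The edgeR test of Sp.SK against U.SK was also run on simulated counts. Alternatives were DESeq2 1.42.0, limma 3.58.1 (voom with quality weights, or log2(FPKM + 1) and log2(FPKM + 0.1)), DESeq2 size factors, other filters, fewer libraries, a replicate block and each library left out. No pair of libraries was a copy of another. Gene sequences were not used here.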

Additional observations from a re-analysis of the deposited data

Results flagged for a closer look

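The change from U.SK to Sp.SK differed between the genotypes for 4981 genes by edgeR's test of the difference (Sp.SK minus U.SK in “1511”, less the same in “1601”, log2 scale). The 20 genes below were chosen for their change in “1511”, which is a term of this difference, so large values follow in part from the choice. Among the 10 largest rises it was 4.76 for the newly assembled gene of the bicarbonate transporter family, 4.58 for TEA007401, 5.75 for TEA022960, 6.49 for TEA016482, 6.59 for TEA022060, 6.69 for TEA023243, 6.76 for TEA010322, 6.09 for TEA014197, 6.55 for TEA010147 and 5.29 for TEA015791. In 8 of these 10 the Sp.SK mean of “1601” was below its U.SK mean.

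Among the 10 largest falls it was -4.85 for TEA002783, -7.41 for TEA026664, -6.25 for TEA023633, -5.28 for TEA020954, -4.11 for TEA027058, -5.74 for TEA004370, -4.97 for TEA026595 and -3.74 for TEA019262. For TEA006609 (-2.97, adjusted p = 0.0571) and the newly assembled DUF5009 gene (-3.21, adjusted p = 0.0964) the difference did not pass the test.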

How the results depend on the processing

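For the 74 genes checked, 1242 combinations of gene and alternative could be run, the filter of 10 counts dropping 14 of the genes and the exclusion of newly assembled genes 2. In them none of the 65 called genes changed direction and 58 stayed called, and the others lost their call mostly without Sp.SK library 1 (5) or U.SK library 1 (5). Among the 9 not called, the sign of the log2 fold change turned for TEA003374 (-0.46 to 0.02 with 1 library left out), TEA020236 (-0.23 to 0.40, and -0.25 in voom), TEA029025 (-0.20 to 0.50), TEA026705 (-0.12 to 0.70, and -0.11 in voom) and TEA002422 (-0.29 to 0.05, and 0.03 in voom). The count of called genes, 11072, was 7314 with fewer groups in the fit, 6534 with a minimum absolute log2 fold change of 1, and 6349 to 11496 with 1 library left out. The higher genes, 6177, ran from 4028 to 6355 with 1 library left out. The lower genes, 4895, were 3000 with fewer groups in the fit, 3055 in edgeR on the 6 libraries alone, 2160 with the minimum fold change, and 2321 to 5141 with 1 library left out. The genotype difference, 4981 genes, was 11337 in limma voom and 2820 to 6154 with 1 library of either genotype left out. Higher and lower calls came to 7332 and 7012 in voom and to 5744 and 5600 on log2(FPKM + 1), a more even split than 6177 and 4895. A left-out library leaves fewer samples, and the cause of the other changes was not tested.

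With the replicate number as a block, 10907 genes were called (6170 higher and 4737 lower), and 4973 for the genotype difference. Deviations of same-numbered Sp.SK and U.SK libraries from their group means correlated at 0.0555, -0.0793 and 0.118. With means of only 3 libraries, these values cannot tell whether same-numbered libraries shared a box or batch.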

Other observations

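The family 3 glycosyl hydrolase TEA024906 was one of the most abundant transcripts, with 2376, 7886 and 5787 CPM on Sp.SK, 9992, 10017 and 11565 CPM on U.SK and 7161, 12552 and 2819 CPM on U.NK in “1511” (log2 fold change of Sp.SK over U.SK -0.98 ± 0.57, adjusted p = 0.203). Terpene synthase TEA009449 had 522, 722 and 526 CPM on Sp.SK and 1221, 1403 and 1415 CPM on U.SK, and although these do not overlap it was not called (log2 fold change -1.19 ± 0.56, adjusted p = 0.109).

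Cupins had 18 of 66 genes higher on Sp.SK and 0 lower, 35 higher without U.SK library 3 and 9 to 11 without U.SK library 1, U.SK library 2, Sp.SK library 1 or Sp.SK library 3. Their summed level was 2351, 1721 and 2480 CPM on Sp.SK and 893, 1073 and 1868 CPM on U.SK, library 3 being the highest of the U.SK libraries. Disease-resistance receptors with the NB-ARC domain had 30 of 406 higher and 42 lower, shares of 7.39% and 10.3%, both under those of all genes tested, and 14 higher and 19 lower without Sp.SK library 1, 18 and 17 without U.SK library 1, and 19 and 25 without U.SK library 2, with 22 lower without Sp.SK library 3.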
